A study of Mus musculus with 2 samples.

Results

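The granins and the granule membrane proteins studied here are 8 genes chosen by name, by a rule that uses no measured value, though earlier results of these data were known: Chga, Chgb, Scg2, Scg3, Scg5, Vgf, Ptprn and Ptprn2. They are 8 of the 22383 features counted in mouse pancreatic islets by droplet single-cell RNA sequencing. In the control library they held 2186893 of 241434108 UMIs (molecular barcodes, each for 1 captured transcript). The library labelled TBL/RBKO gave 3144336 UMIs for them among 185062206.

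The control library, whose genotype label reads wildtype, came from Cre-negative littermates, and the library labelled TBL/RBKO from mice with loxP-flanked Tbl1x and Tbl1xr1 and a Cre recombinase placed in the Ins1 locus, which is active in β-cells. All mice were on a C57BL/6N background and 5 weeks old, and the islets of both groups spent a night in culture before dissociation. Each group gave 1 library, made from 150 islets pooled from 4 mice, so no value below has a replicate, no test was possible, and each difference describes these 2 libraries. A Cre-carrying control without the floxed alleles was not part of the comparison, so effects of Cre and of the deletion on these counts cannot be told apart. The paper reports that Ins1Cre alone left β-cell function, insulin levels and glucose metabolism unaffected. Those measures did not include transcripts.

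Granins are acidic proteins that are packed with hormones into dense-core secretory granules and are cut there into smaller peptides. Chromogranin A and chromogranin B (Chga, Chgb) and secretogranin II (Scg2) aggregate in the trans-Golgi network, where granules bud. Secretogranin III (Scg3) binds chromogranin A and cholesterol-rich granule membrane, and Scg5 encodes 7B2, the chaperone of the prohormone convertase PC2. Vgf is a granin-like cargo that is strongly regulated in neurons. Ptprn and Ptprn2 encode IA-2 and phogrin, granule membrane proteins of the tyrosine phosphatase family without classical phosphatase activity, and IA-2 is an autoantigen of type 1 diabetes. In islets these proteins are shared by all hormone-secreting cells, and their levels differ between cell types.

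Barcodes with more than 2500 detected genes and under 10% mitochondrial UMIs were kept (4747 control and 4179 of the library labelled TBL/RBKO) and were assigned by their largest hormone, insulin (Ins1 and Ins2), Gcg, Sst or Ppy, at 100 or more UMIs per 10000. The classes held 2877 and 1338 barcodes for β, 1284 and 1546 for α, 223 and 374 for δ and 259 and 495 for PP, control first. The libraries shared 14 barcode sequences. Cre UMIs of the plus strand were 0 in every control class and 3107 in β class of the library labelled TBL/RBKO, as its label says. The targeted genes went against the label: Tbl1x was at 96.9 CPM (UMIs per 1e6 UMIs) in control β class and 351 CPM in the other, and Tbl1xr1 at 20.0 and 129 CPM. By quantitative PCR, the paper reports lower expression of both genes in islets of knockout mice of the same age. The UMIs come from transcript 3′ ends, and the sources used here do not place the deleted exons, so these counts may not read the deletion. All directions given below are therefore of the library labelled TBL/RBKO against the control, not of a loss of these transcripts.

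Promoter sequences were available for 7 of the 8 genes in RefSeq (GRCm38.p6), and those of 4 are shown because they hold the core of the cAMP response element, a sequence that granin genes are known for. The letters TGACGT, or ACGTCA on the other strand, were present in the 250 bases before the annotated start of Chga, Chgb, Scg2 and Scg5, and in 6.47% of 32851 mouse promoter stretches of that length. The full palindrome TGACGTCA, which contains the core, was present in Chgb and Scg2 and in 1.55% of the stretches. The motif was chosen after the sequences had been seen, and a match is a description of letters and not a bound site. The stretches end at the base before the start, read 5′ to 3′ on the gene's strand, and capitals mark the motif. They lie at chr12:102554691-102554940 (plus strand), chr2:132781392-132781641 (plus), chr1:79440027-79440276 (minus) and chr2:113829092-113829341 (minus).
Chga: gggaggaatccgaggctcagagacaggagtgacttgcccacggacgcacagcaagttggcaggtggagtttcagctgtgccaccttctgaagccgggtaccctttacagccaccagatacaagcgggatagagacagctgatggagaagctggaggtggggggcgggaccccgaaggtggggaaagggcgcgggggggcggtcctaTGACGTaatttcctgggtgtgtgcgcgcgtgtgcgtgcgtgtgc
Chgb: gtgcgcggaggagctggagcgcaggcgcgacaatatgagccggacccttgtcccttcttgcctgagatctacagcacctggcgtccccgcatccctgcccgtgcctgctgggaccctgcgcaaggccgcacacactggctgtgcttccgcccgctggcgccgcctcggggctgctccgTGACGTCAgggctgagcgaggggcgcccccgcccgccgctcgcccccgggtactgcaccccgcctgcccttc
Scg2: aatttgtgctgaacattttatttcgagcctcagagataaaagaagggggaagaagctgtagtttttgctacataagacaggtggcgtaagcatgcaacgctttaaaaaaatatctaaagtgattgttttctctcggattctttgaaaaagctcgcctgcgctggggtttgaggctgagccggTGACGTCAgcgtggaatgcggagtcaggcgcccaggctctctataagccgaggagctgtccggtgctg
Scg5: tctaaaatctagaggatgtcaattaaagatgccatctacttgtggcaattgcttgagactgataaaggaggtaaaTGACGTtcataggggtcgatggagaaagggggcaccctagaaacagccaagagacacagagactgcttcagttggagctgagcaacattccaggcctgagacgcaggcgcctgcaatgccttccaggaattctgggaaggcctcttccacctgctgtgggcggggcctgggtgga
The 4 stretches belong to genes that did not move alike in these data: in β class Chgb and Chga were higher in the library labelled TBL/RBKO, and Scg2 and Scg5 were close to the median of all genes. Scg2 and Ptprn2 shared a different run of letters around the start. It resembles parts of the site of the repressor REST, which keeps neuroendocrine genes silent in other tissues, but joined with no free bases between them. The run TTCAGCACCGGACAG, on either strand, was found in 2 of 32851 promoters read from 250 bases before to 50 after the start, those of Scg2 and Ptprn2. The same letters with 2 free bases after TTCAGCACC were found in 4 other promoters and in that of no member. Binding of REST to either form was not tested. These letters, too, were chosen after the sequences had been seen. Both matches are shown as 30 bases of the gene's strand, with the run in capitals as its reverse complement.
Scg2: cgaggagCTGTCCGGTGCTGAAacggcccg
Ptprn2: ggtggcgCTGTCCGGTGCTGAAgctcggcc
Rest itself was at 0.483 CPM in control β class and 0.713 CPM in β class of the library labelled TBL/RBKO, and at 77.1 and 64.6 CPM in the non-endocrine barcodes. By their markers these were different mixtures. The control's were mostly endothelial (41), macrophage (37) and stromal (18), without lymphoid barcodes. The other library's were led by stromal (92), B cell (62), macrophage (52) and endothelial (40) barcodes. Scg2 and Ptprn2 were at 24.7 and 36.3 CPM in control non-endocrine barcodes against 578 CPM or more in every control hormone class. The members without these letters were also lower there, such as Scg3 at 11.7 CPM against 387 CPM or more. The contrast is therefore not particular to Scg2 and Ptprn2, and a part of REST in it was not tested.

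All 8 genes were found in all 4 hormone classes of both libraries, and in each case at a lower level in non-endocrine barcodes. There the levels were 1.62 to 18.3% of those in the lowest hormone class. Ptprn stood highest by this measure, with 39.1 CPM in control non-endocrine barcodes and 214 CPM in control PP class. In the control, the classes differed by gene. Chga was highest in β class at 5144 CPM, followed by α (3354 CPM), δ (3137 CPM) and PP class (1956 CPM). Chgb was highest in δ class, at 3559 CPM, against 1211 CPM in PP, 784 CPM in β and 689 CPM in α class. Scg2 followed the same order, from 2843 CPM in δ and 1501 CPM in PP to 1247 CPM in β and 578 CPM in α class.

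Of the remaining genes, Scg3 and Ptprn were spread more evenly, with the highest control class at 1.61-fold and 1.51-fold the lowest. This ratio was 2.31 for Scg5 and 2.61 for Ptprn2, near the 2.63 of Chga, and 7.21 for Vgf. Control Scg3 was at 623 CPM in β and 613 CPM in δ class, whose counting intervals (620 to 627 and 592 to 634) overlapped, and at 539 CPM in α and 387 CPM in PP class. Scg5 was highest in PP class (1210 CPM), with 960 CPM in α, 938 CPM in δ and 524 CPM in β class. The intervals of α and δ (948 to 971 and 912 to 964) overlapped. Vgf was highest in α class in both libraries, at 40.3 CPM in the control, against 13.2 CPM in β, 9.51 CPM in δ and 5.58 CPM in PP class. Control Ptprn ranged from 214 CPM in PP and 221 CPM in β class, with overlapping intervals, to 276 CPM in α and 323 CPM in δ class. Control Ptprn2 was highest in α class (1943 CPM), with 1359 CPM in δ, 1075 CPM in PP and 744 CPM in β class. All intervals are 95% intervals for counting error only, and these orders were not tested.

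Insulin took 49.6% of the control β class UMIs, which lowers the CPM of every other gene. Counted per 1e6 UMIs other than Ins1 and Ins2 (insulin-free CPM), control β class Chga was at 10203 and α class Chga at 3390, a ratio of 3.01. On the same scale Scg2 was 4.23-fold and Scg3 2.27-fold higher in β than in α class, and Ptprn2 stayed lower in β class, at 0.751 of the α class level. Leaving insulin out changed the place of β class in the orders of Chgb, Scg2, Scg5, Ptprn and Ptprn2. Its place stayed the same for Chga, Scg3 and Vgf. Insulin made up 1.07% of control α class UMIs, 1.15% in δ and 1.82% in PP class.

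**Figure D1:**
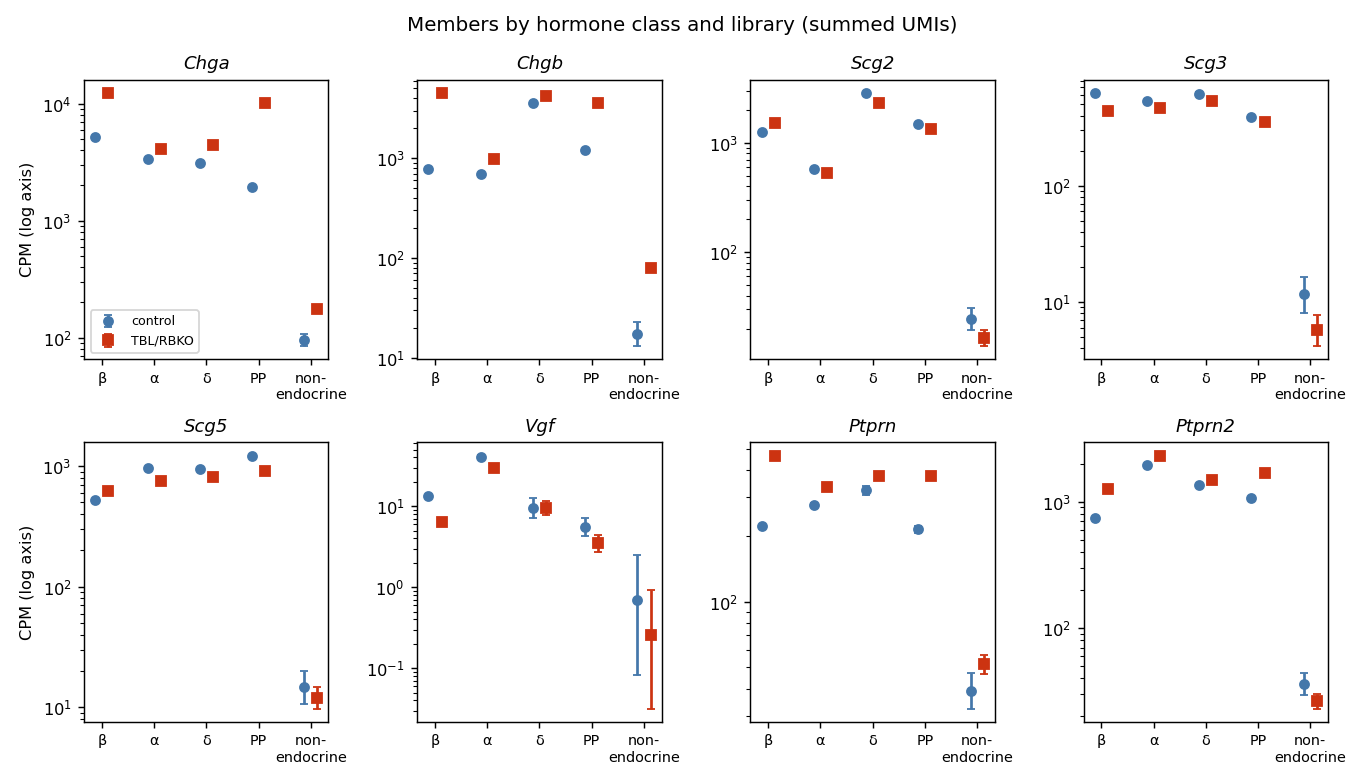
Level of each gene in CPM (log axis) in the β, α, δ and PP classes and in non-endocrine barcodes, for the control (circles) and the library labelled TBL/RBKO (squares), with 95% counting intervals and 1 library per group. Chgb in β class is at 784 and 4551 CPM, and the non-endocrine points lie below all hormone classes in each panel.

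In β class, the 8 genes together took 0.930% of control UMIs, and in the library labelled TBL/RBKO 2.13%. They made up 18445 and 29489 insulin-free CPM. Chgb and Chga made up the largest part of the difference, Ptprn and Ptprn2 were higher as well, Scg2 and Scg5 lay near the median gene, and Scg3 and Vgf were lower. The median log2 ratio of the 7535 genes tested in β class was 0.31 (SD over genes 0.57), with insulin at 27.9% of the β class UMIs of the library labelled TBL/RBKO. Ratios are therefore also given relative to that median, and a relative difference of 2-fold or more was called. Genes were tested at a mean of 10 CPM or more with UMIs in both libraries. Of the 7 genes of the group that were tested, 1 (Chgb) was called higher, beside 3.89% of all genes, and 0 were called lower, beside 2.00% of all genes. The median relative log2 ratio of those 7 was 0.45.

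Chgb (ENSMUSG00000027350, chr2:132622464-132637904 on GRCm39, plus strand) was at 784 CPM (780 to 788) in control β class and at 4551 CPM (4538 to 4564) in that of the library labelled TBL/RBKO. The log2 ratio was 2.54, or 2.23 relative to the median gene, which placed it at rank 50 from the top among 7535 genes. Without insulin in the total the ratio was 4.06-fold. The distributions over barcodes were largely apart. The control median was 6.50 UMIs per 10000, with 13.0 at the 90th percentile, and the other median was 33.3. Of the β class barcodes labelled TBL/RBKO, 97.5% lay above the control median and 84.5% above the control 90th percentile. The spread between those barcodes was wide, from 10.1 per 10000 at the 10th to 98.0 at the 90th percentile.

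Chga (ENSMUSG00000021194, chr12:102520484-102531300, plus strand) was the most counted gene of the group in β class, at 5144 CPM (5134 to 5155) in the control and 12428 CPM (12407 to 12450) in the library labelled TBL/RBKO. Its log2 ratio of 1.27 became 0.97 relative to the median gene, just short of the 2-fold limit (1.13 with only barcodes of fewer than 6000 genes), and the ratio without insulin was 1.69-fold. Its medians over barcodes were 49.4 and 116 UMIs per 10000, and 71.4% of the β class barcodes labelled TBL/RBKO lay above the control 90th percentile of 81.1. Because Chgb differed more than Chga, the ratio of Chga to Chgb UMIs in β class went from 6.56 in the control to 2.73. In PP class it went the other way, from 1.61 to 2.85. In α class it was 4.87 and 4.16, and in δ class 0.881 and 1.06. This ratio depends on how well each 3′ end is captured, so its change between libraries can be read and its size cannot.

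Scg2 (ENSMUSG00000050711, chr1:79412386-79417837, minus strand) was at 1247 CPM in control β class and 1505 CPM in the library labelled TBL/RBKO. Relative to the median gene the log2 difference was -0.04, and without insulin in the total the ratio was 0.844, so its direction depends on the scale. Scg3 (ENSMUSG00000032181, chr9:75546929-75591396, minus strand) was lower on each scale, at 623 CPM (620 to 627) and 439 CPM (435 to 443), with a log2 ratio of -0.50 and a relative log2 ratio of -0.81. Its ratio without insulin was 0.493. Its medians were 6.06 and 3.83 UMIs per 10000, and 16.9% of the β class barcodes labelled TBL/RBKO lay above the control median. Scg3 transcripts were thus lower in the β class where Chga transcripts were higher, and the proteins and their binding were not measured here.

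Scg5 (ENSMUSG00000023236, chr2:113606688-113660094, minus strand) stood at 524 CPM in control β class and 624 CPM in the library labelled TBL/RBKO, a relative log2 ratio of -0.05. Vgf (ENSMUSG00000037428, chr5:137055246-137062205, plus strand) was at 13.2 CPM (12.7 to 13.7) and 6.45 CPM (5.96 to 6.96), a relative log2 ratio of -1.34. Its mean was under 10 CPM, so it was not among the tested genes. In the control, 39.2% of β class barcodes had a Vgf UMI, and in the other library 22.6% (20.4 to 25.0, exact binomial interval), at median depths of 53346 and 67897 UMIs per barcode. In barcodes thinned to 5000 UMIs these shares were 4.62% (3.88 to 5.45) and 3.14% (2.27 to 4.22), with overlapping intervals. In non-endocrine barcodes, whose cells should lack the gene, 1.03% and 0.722% had a Vgf UMI before thinning, at median depths of 26757 and 22242 UMIs.

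Ptprn (ENSMUSG00000026204, chr1:75223671-75241146, minus strand), the IA-2 gene, was at 221 CPM (219 to 223) in control β class and at 464 CPM (459 to 468) in the library labelled TBL/RBKO. The relative log2 ratio was 0.76 and the ratio without insulin 1.47-fold. Its medians over barcodes were 2.03 and 4.56 UMIs per 10000, and 91.8% of the β class barcodes labelled TBL/RBKO lay above the control median. Ptprn2 (ENSMUSG00000056553, chr12:116449307-117241797, plus strand), the phogrin gene, was at 744 CPM (740 to 748) and 1254 CPM (1247 to 1261), a relative log2 ratio of 0.45. It overlapped more, with 73.0% of those barcodes above the control median and 34.1% above the control 90th percentile.

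**Figure D2:**
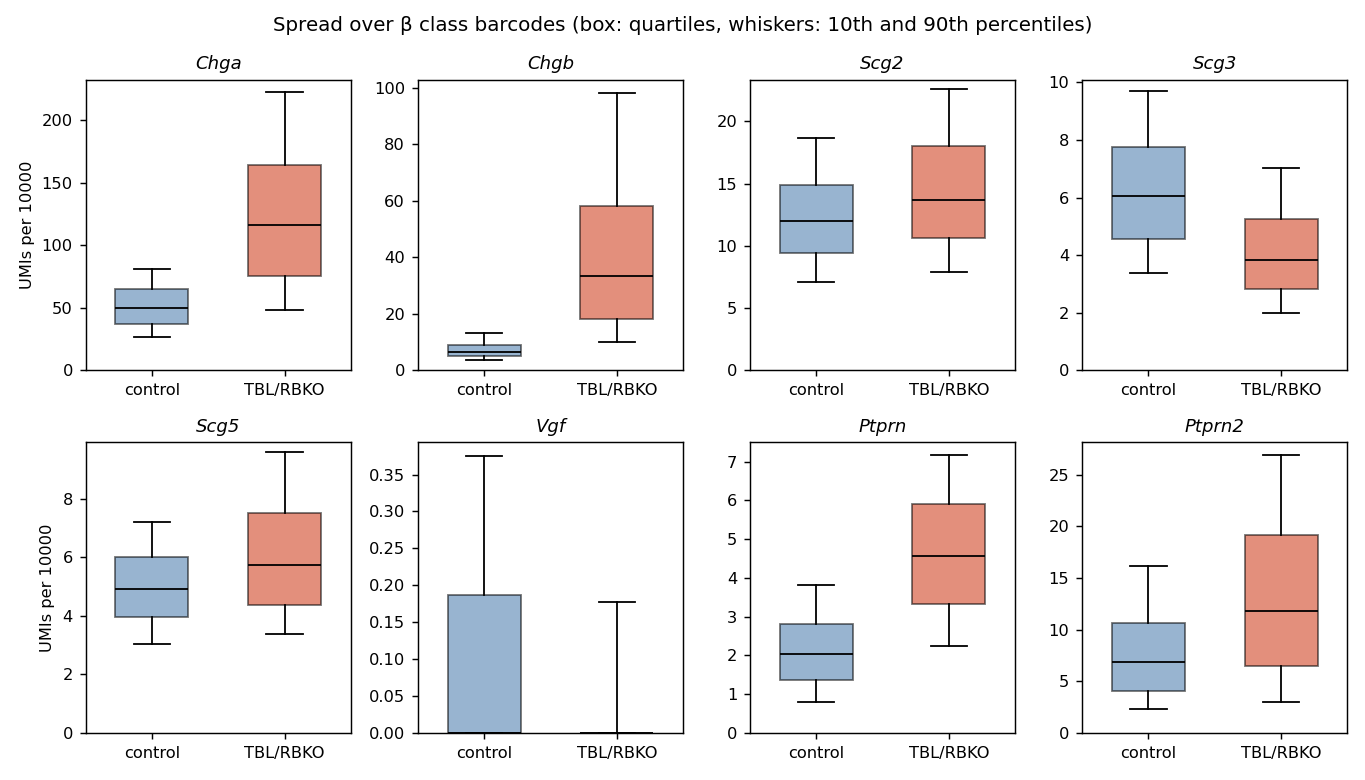
UMIs per 10000 of each gene over β class barcodes, 2877 of the control and 1338 of the library labelled TBL/RBKO. Boxes give quartiles, lines medians and whiskers the 10th and 90th percentiles, which show the spread between barcodes of 1 library and not between replicates. The Chgb boxes do not overlap (medians 6.50 and 33.3), and the Scg3 box lies lower in the library labelled TBL/RBKO (medians 6.06 and 3.83).

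Other properties of β class differed between the libraries together with these genes. In the library labelled TBL/RBKO 60.8% of β class barcodes passed the minimum for a further hormone, mostly Ppy (51.6%), against 16.3% in the control (Ppy 5.80%). Its barcodes were deeper, with 76.7% at 6000 genes or more against 49.5%. Of the β-cell marker genes other than hormones, the 6 summed to 1656 CPM in control β class and 765 CPM in the other. The 6 α-cell markers without Gcg summed to 668 and 1927 CPM, of which Ttr made up 487 and 1748 CPM, while the α-cell transcription factor Irx2 was at 3.63 CPM in the control and 5.66 CPM in the other. The 4 δ-cell markers without Sst summed to 282 and 441 CPM. The 4 ductal markers summed to 183 and 650 CPM, with Krt19 at 1.12 and 63.6 CPM, and the 6 stromal markers to 22.5 and 79.6 CPM. The PP-cell markers other than hormones summed to 43.5 and 106 CPM. Macrophage markers went the other way, at 73.3 and 24.7 CPM, and so did endothelial markers, at 20.8 and 13.8 CPM. The part of mixed barcodes and of free RNA in the levels was not tested beyond the splits that follow.

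Among β class barcodes with no further hormone (2409 and 525), Chgb was at 1459 insulin-free CPM in control barcodes and 6904 in those labelled TBL/RBKO, a 4.73-fold ratio. Chga was 1.62-fold and Ptprn 1.66-fold higher there, and Scg3 was at 0.619 of the control. Among barcodes with a further hormone (468 and 813) the ratios were 3.28 for Chgb, 2.20 for Chga, 1.48 for Ptprn and 0.544 for Scg3. In both splits each of these 4 genes differed in the same direction. On this scale the median gene was at a log2 ratio of -0.15 without and -0.18 with a further hormone.

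Barcodes were also compared at like insulin content. Ranges of the insulin share of a barcode's UMIs (under 10%, 10 to 30%, 30 to 50%, and 50% or more) held 163, 152, 1030 and 1532 control barcodes and 243, 574, 380 and 141 of the library labelled TBL/RBKO. These are ranges and not cell types, and 217 control and 29 other barcodes lay within 1 percentage point of the limit at 50%. Near the limit at 10% lay 4 control barcodes and 67 of the library labelled TBL/RBKO, and near that at 30% 25 and 41. The median log2 ratio of all genes on UMIs without insulin was between -0.24 and -0.20 in the 4 ranges.

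Chgb was higher in the library labelled TBL/RBKO in every range, by 6.77-fold, 3.05-fold, 4.01-fold and 2.99-fold from the lowest to the highest insulin share. In the range with most insulin it was at 1397 insulin-free CPM in the control and 4175 in the other, beside 1.06% of all genes in that range at 2-fold or more higher. Chga was higher by 5.33-fold, 2.76-fold, 1.99-fold and 1.42-fold, so its difference was smaller where insulin was more. The 2 libraries differed in how Chga went with insulin: the control sums went from 2810 through 6269 and 9472 to 11847 insulin-free CPM over the ranges, and the other from 14990 through 17278 and 18834 to 16844. Over single control barcodes, Chga per 10000 UMIs without insulin and the insulin share had a Spearman correlation of 0.47, and in the other library 0.12. Both correlations rest on barcodes of 1 library, which share its depth and free RNA.

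Ptprn was higher in each range, by 2.55-fold, 1.66-fold, 1.60-fold and 1.62-fold. Ptprn2 went the other way with insulin in both libraries. Control sums were 2773, 1690, 1714 and 1186 insulin-free CPM, and the sums of the library labelled TBL/RBKO 2193, 1744, 1540 and 1225. At like insulin the libraries differed little in Ptprn2, with ratios of 0.791, 1.03, 0.899 and 1.03, and over the whole class the ratio on this scale was 1.18-fold.

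Scg3 was higher where insulin took a larger share, from 302 to 1351 insulin-free CPM in the control and from 418 to 1116 in the other. At like insulin its ratio was 1.38, 0.580, 0.637 and 0.826, lower in the library labelled TBL/RBKO in 3 of the 4 ranges. Scg2 moved with insulin in a like way, at 525 to 2691 in the control and 1510 to 3559 in the other, with ratios of 2.88, 0.892, 1.04 and 1.32. Scg5 had ratios of 2.08, 0.869, 0.925 and 1.04. Vgf, with 5 to 1248 control UMIs per range, had ratios of 1.65, 0.253, 0.536 and 0.974. The intervals of its first and last log2 ratio (-0.59 to 2.40 and -0.31 to 0.22) included 0. The control barcodes with the least insulin stood apart: they had a median of 9271 UMIs, all members but Ptprn2 were at their lowest there, and 16.6% of all genes were 2-fold or more lower in the library labelled TBL/RBKO in that range, beside 6.76% higher.

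**Figure D3:**
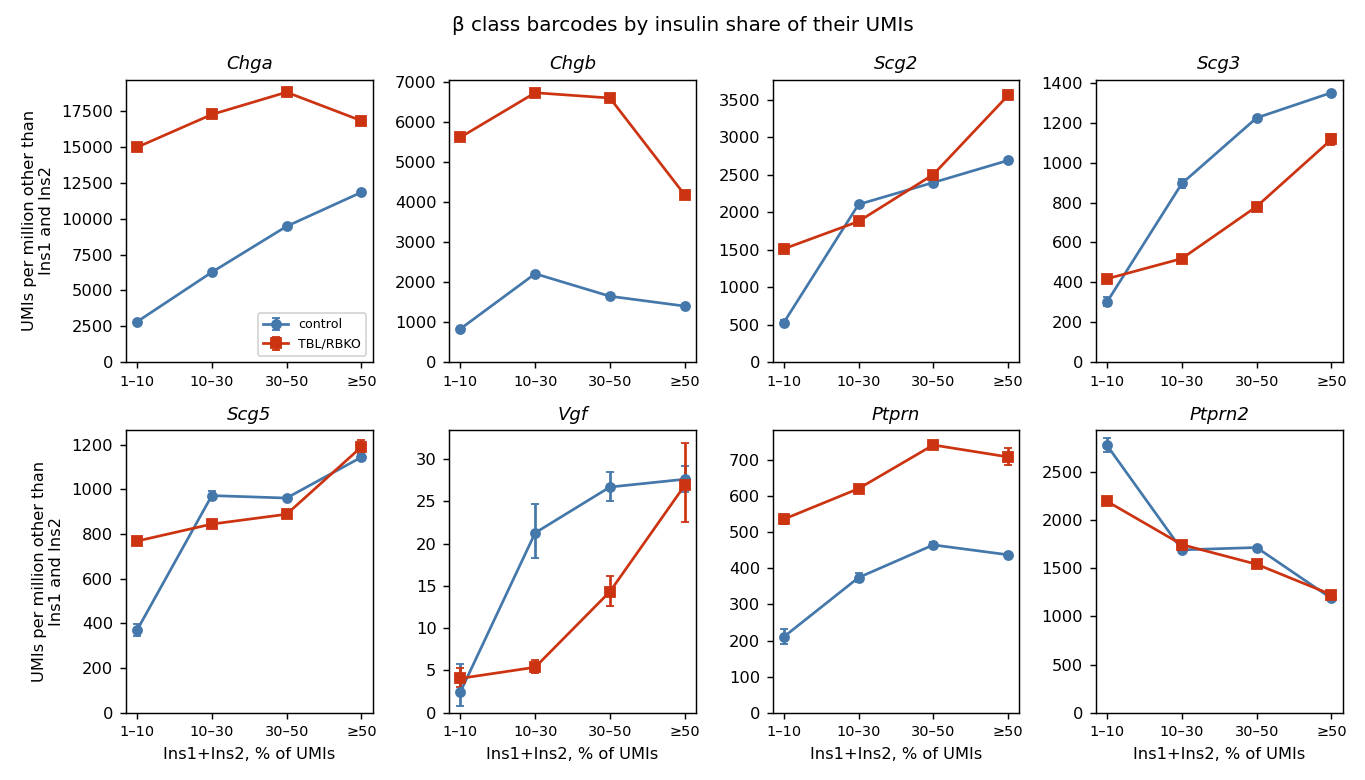
Insulin-free CPM of each gene (per 1e6 UMIs other than Ins1 and Ins2) in β class barcodes grouped by the insulin share of their UMIs, for the control (circles) and the library labelled TBL/RBKO (squares), with 95% counting intervals. Chgb and Ptprn are higher in the library labelled TBL/RBKO in all 4 ranges, the Chga lines approach each other at high insulin (11847 and 16844 insulin-free CPM at 50% or more), and the Ptprn2 lines go down together.

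In PP class, the 8 genes took 0.756% of control UMIs, and in the library labelled TBL/RBKO 1.84%. Of the 7 tested genes, 2 (Chga and Chgb) were called higher, beside 4.09% of the 8282 genes tested, and 0 lower, beside 1.00%. Chga was at 1956 CPM (1930 to 1982) and 10180 CPM (10136 to 10223), a relative log2 ratio of 2.13. Chgb was at 1211 and 3577 CPM, a relative log2 ratio of 1.31, which fell under the 2-fold limit with barcodes of a further hormone left out (0.81) and with only barcodes of fewer than 6000 genes. Ptprn (214 and 375 CPM) and Ptprn2 (1075 and 1676 CPM) had relative log2 ratios of 0.56 and 0.39. Scg5 was lower, at 1210 and 905 CPM (relative log2 ratio -0.67), and so were Scg2 (-0.41) and Scg3 (-0.39).

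The PP class barcodes of the library labelled TBL/RBKO were uneven. Their Chga median was 31.5 UMIs per 10000 with an upper quartile of 139, against 14.3 and 24.4 in the control, while their lower quartile of 11.7 was near the control's 9.85. Of these barcodes, 31.5% also passed the insulin minimum, and 24.3% of the control's. Among PP class barcodes with insulin at the minimum or more (63 and 156), Chga was 5.10-fold, Chgb 3.89-fold, Ptprn2 2.69-fold and Ptprn 2.37-fold higher on UMIs without insulin, and 16.0% of all genes were 2-fold or more higher there. Among those under the insulin minimum (196 and 339), the ratios were 2.98, 1.91, 1.21 and 1.38, and 2.73% of all genes were 2-fold or more higher. Among PP class barcodes with no other hormone (113 and 210), Chga was 3.86-fold and Chgb 1.99-fold higher. PP class of the library labelled TBL/RBKO held 43 plus-strand Cre UMIs, and its Tbl1x level was 367 CPM against 103 CPM in the control. The 6 stromal markers summed to 5.04 CPM in control PP class and 129 CPM in the other, and the 4 ductal markers to 262 and 499 CPM. Their part in the PP class values was not tested.

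In α class, 0 of the 8 tested genes were called higher, beside 0.512% of the 8795 genes tested, and 0 lower, beside 0.0796%. Relative log2 ratios ran from -0.54 (Vgf, 40.3 and 29.8 CPM) and -0.44 (Scg5, 960 and 758 CPM) to 0.41 (Chgb, 689 and 980 CPM). Chga was at 3354 and 4072 CPM there. With barcodes of a further hormone left out, the relative log2 ratio of Chgb in α class was -0.07 and that of Chga -0.26, so both directions turned. Insulin at its minimum or more was found in 47.0% of control α class barcodes and 5.82% of the others, and control non-endocrine barcodes held a median insulin share of 0.654% against 0.136%. In δ class, 0 of 7 tested genes were called higher, beside 0.712% of 8992 genes, and 0 lower, beside 0.356%. Chga was at 3137 and 4445 CPM (relative log2 ratio 0.49, and -0.11 when only barcodes with fewer than 6000 genes were used), and Scg2 at 2843 and 2331 CPM (-0.30).

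The directions had a common shape over the classes. Chga, Chgb, Ptprn and Ptprn2 had positive relative log2 ratios, and Scg2, Scg3 and Scg5 negative ones, in each of the α, δ and PP classes. In β class the signs of these genes were the same, with Scg2 (-0.04) and Scg5 (-0.05) close to the median gene. Vgf was negative in all 4 classes, but at -0.01 in δ class, and it was not among the tested genes in β, δ and PP class. With barcodes of a further hormone left out, the values that changed sign included Chga (-0.26) and Chgb (-0.07) in α class, and Ptprn2 (-0.11) and Scg5 (0.03) in δ class. Chga in δ class was at -0.11 with only barcodes of fewer than 6000 genes. The 4 classes of a library share its preparation and free RNA, so these are not independent observations.

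**Figure D4:**
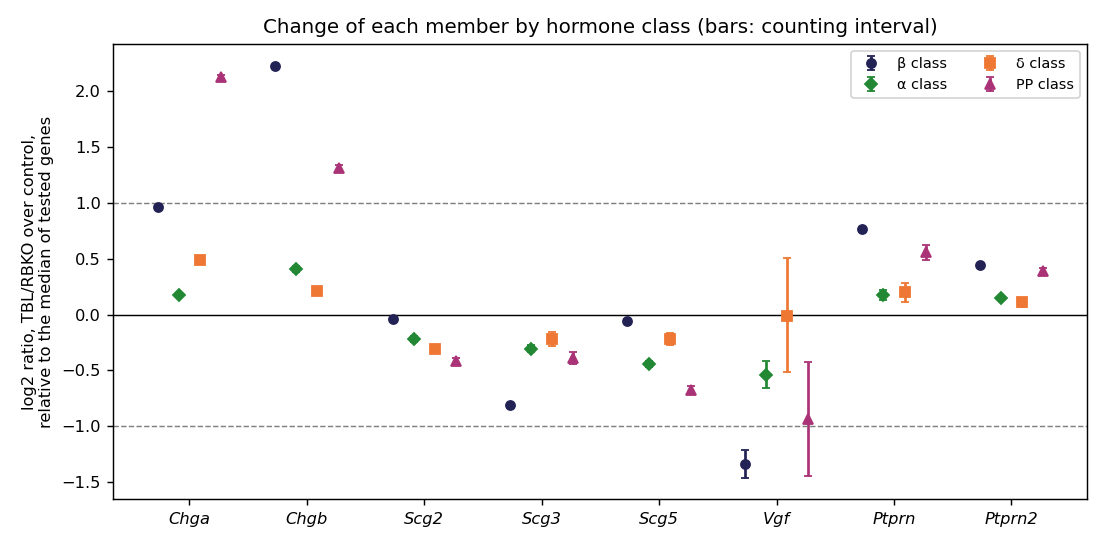
Log2 ratio of each gene, library labelled TBL/RBKO over control, relative to the median of the tested genes of its class, with 95% counting intervals. Broken lines mark 2-fold. Chgb in β class (2.23) and Chga and Chgb in PP class (2.13 and 1.31) lie above the upper line. Vgf in β class (-1.34) lies below the lower line but was under the 10 CPM filter.

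Barcodes with no hormone at the minimum and too few non-endocrine markers numbered 149 in the library labelled TBL/RBKO, against 7 control barcodes. The 149 had a median of 12761 UMIs, and the 8 genes took 0.916% of their summed UMIs, against 0.949% in α class and 0.0369% in non-endocrine barcodes of that library. The sums were uneven over barcodes. Ptprn2 was at 3290 CPM (3216 at the lower bound) in them, above its 2316 CPM in α class, the highest of the hormone classes of that library. Its mean of 49.6 and its median of 49 UMIs per barcode were close. Chga was at 2716 CPM with a mean of 41.0 and a median of 7 UMIs, and Chgb at 1953 CPM with a mean of 29.4 and a median of 1 UMI, so these sums do not describe the typical barcode. Ptprn was at 229 CPM. Scg2 (397 CPM), Scg3 (216 CPM) and Scg5 (355 CPM) were lower than in any hormone class of that library. The 7 control barcodes are too few to compare.

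Over the 10 sums (4 hormone classes and non-endocrine barcodes of both libraries) the gene most like each member was sought among 9241 genes by Pearson correlation of log2(CPM + 1), as a description of 10 points that share libraries. The 2 most alike were Aox1 (0.99) and Fxyd6 (0.99) for Chgb, and Reep6 (0.99) and Akr1c13 (0.99) for Chga. For Scg2 they were Rab3a and Tceal3, for Scg3 Slc2a5 and Btbd17, for Scg5 C1qtnf4 and Efcab15, and for Vgf Best3 and Csmd2. For Ptprn they were Tle5 and P4htm, and for Ptprn2 Syn1 and Map2. Among the members, Ptprn was most like Chga (0.97) and Chgb (0.96), Scg5 was most like Ptprn2 (0.98) and Scg3 (0.98), and Vgf was least like Chgb (0.54). For each member the non-endocrine sums lay far below the others, so they weigh heavily in these correlations. Over single β class barcodes, Scg2 and Scg3 went together in both libraries, with Spearman correlations of 0.44 (control) and 0.56. Ptprn and Ptprn2 had values of 0.07 and 0.14. Scg5 and Ptprn2, alike over the sums, went opposite ways over single barcodes. Their values were -0.34 (control) and -0.27 in β class, and -0.41 and -0.45 in α class.

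The other granule genes, a list of 55 for processing and cargo, granule membrane, granule formation, fusion and their transcription factors, held no tested gene with a relative log2 ratio as high as that of Chgb in β class. There 51 were tested. Their median relative log2 ratio was -0.05, with 2 called higher (Pcsk1n and Cltrn), beside 3.89% of all genes, and 3 lower (Slc30a8, Sytl4 and Bace2), beside 2.00%. Pcsk1n, the granin-like inhibitor proSAAS of the convertase PC1/3, was at 1049 and 2852 CPM (relative log2 ratio 1.14), and Cltrn, a granule-associated transmembrane protein, at 263 and 665 CPM (1.03). Slc30a8, the zinc transporter of the insulin granule, was at 607 and 180 CPM (-2.06). Sytl4, the granule-docking protein granuphilin, was at 181 and 57.5 CPM (-1.96), and the protease gene Bace2 at 295 and 168 CPM (-1.12).

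The enzymes that cut granins and prohormones lay nearer the median gene. Pcsk1 had a relative log2 ratio of -0.23, Pcsk2, whose product 7B2 protects, 0.12, and Cpe, carboxypeptidase E, 0.31. By group, 9 of 9 processing and cargo genes were tested, with 7 above and 2 below the median of all genes, and of 11 granule membrane and pump genes 3 lay above and 8 below. In α class 0 of 51 tested genes of the list were called in either direction, beside 0.512% of all genes higher and 0.0796% lower. In δ class 0 of 51 were higher, beside 0.712%, and 1 was lower (Slc30a8), beside 0.356%. In PP class 4 of 52 were higher (Pcsk1, Iapp, Bace2 and Neurod1), beside 4.09% of all genes, and 0 lower, beside 1.00%.

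**Figure D5:**
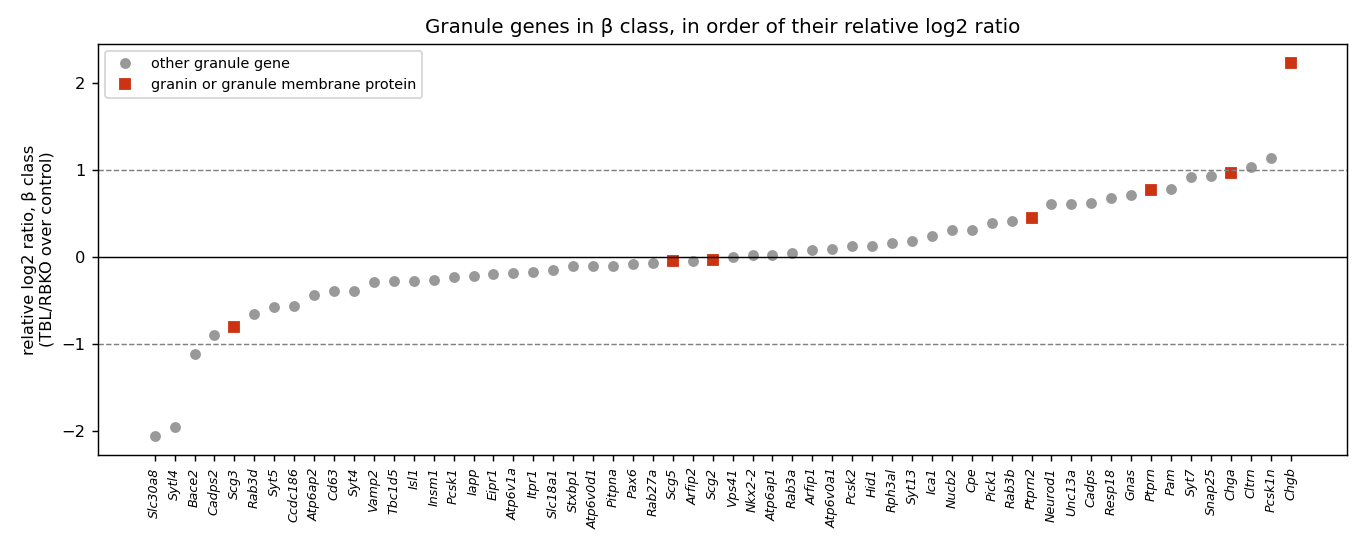
Relative log2 ratio in β class of the 7 tested members (squares) and 51 other granule genes (circles), in order of the ratio, with broken lines at 2-fold. Chgb is at the top (2.23), followed by Pcsk1n (1.14) and Cltrn (1.03), and Slc30a8 (-2.06) is at the bottom.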

How the data were processed

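Each group gave 1 droplet 3′ library of islet cells. The authors deposited unnormalized UMI counts of each gene in each barcode. The submitters' processing notes name Cell Ranger 7.1.0 and the builds GRCm39 and mm39. Groups were taken from the labels. Barcodes held at least 500 UMIs, with a median of 22509 (control) and 19758 UMIs, and no upper limit on detected genes was set. Scrublet (scanpy 1.11.5) marked 84 control barcodes and 1 barcode of the library labelled TBL/RBKO, so its automatic calls had not worked there. Doublets were kept, and removal of the highest scores (334 and 231 barcodes) was an alternative.

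Within each class of a library, UMIs were added up and divided by the class total to give CPM. Sums have exact Poisson intervals, ratios exact conditional intervals and shares exact binomial intervals, all at 95% and for counting error only. Non-endocrine barcodes had no hormone at the minimum and 3 markers of a list at 2 UMIs or more. The code was tested on simulated counts. All 8 members are named, with the other granule genes past 2-fold in β class, Pcsk1, Pcsk2, Cpe and Pcsk1n, and the 2 genes most like each member. Members, lists and classes were chosen with earlier results of these data known. Gene positions are from GENCODE M39 on GRCm39 and promoters from RefSeq on GRCm38.p6. The Vgf promoter was not used here. Python 3.11.15, numpy 2.4.6, scipy 1.17.1, pandas 2.3.3 and matplotlib 3.10.9 were used.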

Additional observations from a re-analysis of the deposited data

How the results depend on the processing

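No paired analysis was possible because each group had 1 library, and for the same reason no replicate could be left out. The count of members called in α and in δ class was 0 and stayed 0 under all 13 alternatives. In β class the count of 1 became 2 with only barcodes of fewer than 6000 genes, and 2 with a mitochondrial share under 5%. It was also 2 with genes kept at 1 CPM, with genes of 1 UMI in both libraries, and with a mean over barcodes. It was 3 with plain CPM ratios and 4 when 1.5-fold counted as past. These counts join both directions. Vgf, which was lower, was the gene added at 1 CPM and at 1 UMI. Scg3, also lower, was among the 4 at 1.5-fold. In PP class the count of 2 became 1 with only barcodes of fewer than 6000 genes, and 1 with barcodes of a further hormone left out, and 3 (Chga, Chgb and Scg5, the last one lower) when 1.5-fold counted as past. The cause was not tested. Chgb in β class ranged from 2.05 to 2.58 on the log2 scale and Scg3 from -0.99 to -0.50 over 12 alternatives. Of 384 member values under those alternatives, 224 moved by less than their counting interval and 160 by more. Scg2 in β class changed sign in 5 of 12. The alternative without the 14 shared barcode sequences was chosen after seeing the data. Without replicates the spread between mice is unknown, and with it whether any difference exceeds that spread.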
